A study of Mus musculus with 6 samples.

Results

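In mature CD8+ T cells from the thymus of C57BL/6 mice, H3K36me3 summed over reads was lower at the peaks of H3K4me3 than beside them, was highest some 6 to 20 kb away and had its lowest levels beyond 200 kb. The median window had its highest level nearer, at 4 kb. In the widest peaks, 73 runs of 5 or more adjacent 2 kb windows, the summed level inside was not the lower one. The level of H3K36me3 beside the peaks went up with the strength of the H3K4me3 peak. Inside the peaks the levels of the marks were almost unrelated from window to window. The strongest and the widest peaks still had a higher summed H3K36me3 level inside than the weakest and the narrowest. The strength of a peak and this level share the same input. The description rests on the 3 CD8 libraries of a series of 6, namely H3K4me3, H3K36me3 and the input, chosen by their labels. The CD4 libraries of the same series, from mature CD4+ thymus T cells of the same strain, enter only where named. In all libraries chromatin had been cut to mononucleosomes with micrococcal nuclease, and the mark libraries had been precipitated with rabbit polyclonal antibodies while the input had no antibody step. Each group is 1 library, so no test between groups was possible and intervals (95%, exact) cover counting error only. How many mice were used and whether they were pooled is not given in the sources used here, and the cell type was not checked against marker genes because no gene annotation of build mm9 was used here.

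H3K4me3 is the trimethylated form of lysine 4 of histone H3. It is laid down by the SET1 and MLL methyltransferase complexes, mainly over CpG-rich promoters, and marks the start of active and of many poised genes. H3K36me3 is laid down by SETD2, which travels with elongating RNA polymerase II, so it covers the bodies of transcribed genes and tends to grow toward their ends. In thymus T cells, as in other cells, a transcribed gene is thus expected to carry H3K4me3 at one end and H3K36me3 over the rest. Both are averages over many cells here, so a low level in every cell and a high level in a part of the cells cannot be told apart.

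On chromosomes 1 to 19 the CD8 libraries held 11878642 H3K4me3 reads, 6604331 H3K36me3 reads and 9716101 input reads. The number of distinct start positions was 31.3% of the reads for H3K4me3, 91.7% for H3K36me3 and 97.6% for the input. Whether the low share for H3K4me3 comes from repeated copies of fragments or from many fragments at the same positions was not tested, so its folds and strength classes count reads and not separate fragments. Reads were counted in 2 kb windows and scaled to library size (RPM), and a level is the RPM of the mark over the RPM of the input in the same window, with input set to at least 3 reads. Of 1150158 windows with a read, 20339 held at least 20 H3K4me3 reads and 4 times the input, which is 1.77% of the windows tested. These are called marked windows below, and every distance is measured to the nearest of them. They formed 13926 runs of adjacent windows and took 96.7% of the H3K4me3 reads, at a median of 355 reads and 52.6-fold over input. Just inside the threshold, 310 marked windows with 20 to 24 reads had a median H3K4me3 level of 5.73-fold and a median H3K36me3 level of 1.10-fold. Just outside it, 1747 windows with 15 to 19 reads had 2.18-fold and 0.736-fold. The input rule sets these apart too, with 2.85 input reads per window inside and 7.03 outside, and the share called for H3K36me3 by the rule given next ran the other way, at 9.68% inside and 11.5% outside. A window was called for H3K36me3 at 10 or more reads and 2 times the input, which 113301 windows passed, or 9.85%. With CD4 input reads in place of the mark, 0.0121% of windows passed the H3K4me3 rule and 5.13% the H3K36me3 rule, or 2.99% after thinning to the depth of the H3K36me3 library. A single call for H3K36me3 in 1 window is therefore weak, and shares of calls are to be read beside these values.

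Around the H3K4me3 summits the fall of H3K36me3 was narrow. The profile used 7673 runs with no other run within 20 kb, in 200 bp steps from the 200 bp bin with the most H3K4me3 reads, both sides together. H3K36me3 stood at 0.906 times the input (0.853 to 0.962) at the summit, had its lowest point of 0.707 (0.679 to 0.736) at 400 bp, and passed the input level between 1200 bp (0.975) and 1400 bp (1.08). It reached 1.84-fold at 4000 bp, 2.12-fold at 10000 bp and 2.17-fold at 20000 bp. H3K4me3, whose position chose the centre, went from 677-fold at the summit to 1.55-fold at 2000 bp and 0.0586-fold at 10000 bp. The input itself was thin at the summits, with 368 reads per 1000 bins of 200 bp against 857 at 20000 bp, and H3K36me3 had 227 reads per 1000 bins against 1263. The reads of H3K36me3 thus varied more between summit and surroundings than its level over input did. How far loss of nucleosomes or of cut fragments at the summit moves the level there was not tested.

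**Figure D1:**
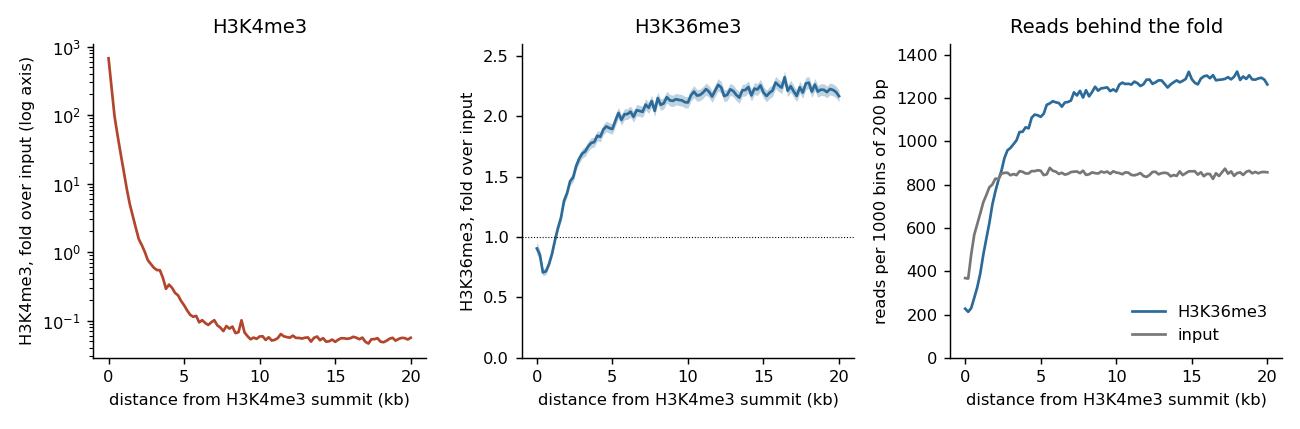
H3K4me3 (left, fold over input on a log axis), H3K36me3 (middle, fold over input with its 95% counting interval shaded) and the H3K36me3 and input reads per 1000 bins (right) against the distance in kb from the H3K4me3 summit, over 7673 runs. H3K36me3 has its lowest point of 0.707 at 400 bp and 2.17 at 20 kb, while the input dips only within about 2 kb.

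By distance class, summed H3K36me3 was highest from 6 to 20 kb away and then fell off over about 200 kb. Summed over all reads, it was at 1.18 times the input in marked windows, 1.66 at 2 kb, 2.07 at 4 kb, 2.21 at 6 kb, 2.28 at 8 to 10 kb and 2.19 at 12 to 20 kb. It then stood at 1.70 at 22 to 50 kb, 0.975 at 52 to 100 kb, 0.549 at 100 to 200 kb, 0.402 at 200 to 500 kb and 0.471 beyond 500 kb. The share of windows called was 7.83% (7.47 to 8.21) in marked windows, 29.8% (29.3 to 30.2) at 8 to 10 kb, 3.99% at 100 to 200 kb and 0.0605% beyond 500 kb. Marked windows hold fewer input reads, 5.51 on average against 8.54 at 8 to 10 kb, which makes the minimum of 10 reads harder to meet there. Without that minimum, an alternative added after the data were seen, 14.3% of marked windows and 32.5% of windows at 8 to 10 kb reached 2 times the input.

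The median window told a flatter story. The median level was 0.736-fold in marked windows, 1.05-fold at 2 kb, 1.10-fold at 4 kb, 0.981-fold at 8 to 10 kb, 0.883-fold at 12 to 20 kb and 0.294-fold beyond 500 kb. At 8 to 10 kb the lowest 25% of windows lay under 0.420-fold and the highest 25% over 2.94-fold, so neighbourhoods with and without H3K36me3 were mixed at the same distance. The rise from marked windows to 8 to 10 kb was seen on each of the 19 chromosomes, between 1.45-fold on chromosome 6 and 2.59-fold on chromosome 13, with a mean of 1.95 ± 0.276 (SD over 19 chromosomes). The summed level at 8 to 10 kb ranged from 2.05 on chromosome 18 to 2.46 on chromosome 13. At 200 to 500 kb chromosome 9 had the highest value, 0.849 against a median of 0.373 over chromosomes. Beyond 500 kb chromosome 2 stood apart at 1.63 against a median of 0.344 over chromosomes. Without its 3 windows there with over 5 times the median input, of which the largest held 117044 H3K36me3 and 45214 input reads, the value was 0.356.

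**Figure D2:**
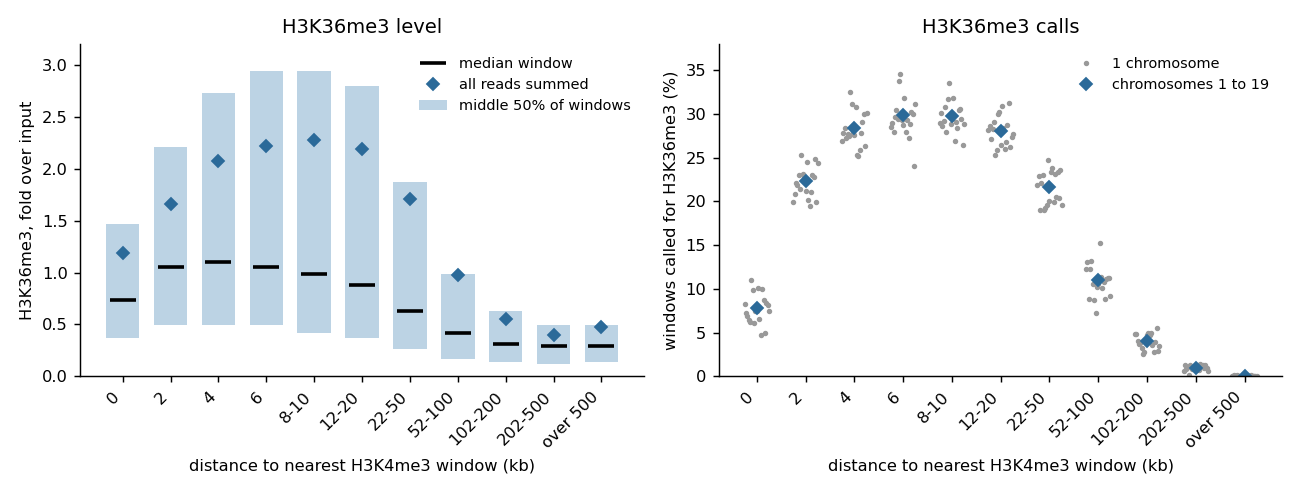
H3K36me3 level as fold over input (left: bars, middle 50% of windows; dashes, median; diamonds, all reads summed) and share of windows called for H3K36me3 in percent (right: dots, single chromosomes; diamonds, all 19) by distance to the nearest marked window in kb. The summed level has its highest value of 2.28 at 8 to 10 kb, the median its highest of 1.10 at 4 kb and the share called its highest of 29.9% at 6 kb, and 0.0605% are called beyond 500 kb.

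The sides of a run differed in H3K36me3. For 6745 runs with no other run within 20 kb, the side with more H3K36me3 reads was chosen in the CD4 library, and the level was then read in the CD8 library. On the chosen side CD8 H3K36me3 was 1.99-fold over input at 2 kb, 2.69-fold at 4 kb, 3.22-fold at 8 to 10 kb and 3.31-fold (3.29 to 3.32) at 12 to 20 kb. On the other side it stayed between 1.02-fold and 1.11-fold over all these distances. Windows called at 8 to 10 kb made up 44.9% on the chosen side and 11.9% on the other. Input reads per window were 8.90 and 8.66 on these sides. The side ahead in CD8 was the one ahead in CD4 for 5931 of 6682 runs, or 88.8% (88.0 to 89.5). Among 6808 runs with all flanking windows from 4 to 20 kb read, 46.3% had called windows on one side only, 30.9% on both sides and 22.8% on neither. A side counted here from a single called window among its 9, and 9.85% of all windows were called. The split was not compared with what that share alone would give.

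H3K36me3 beside a run went up with the strength of the run. The runs were split into 5 classes of equal size by the H3K4me3 level of their strongest window, which had a median of 307-fold in the strongest class and 7.67-fold in the weakest. At 8 to 10 kb the share of windows called for H3K36me3 was 13.2%, 19.6%, 34.0%, 38.8% and 42.6% from the weakest to the strongest class. The summed level there was 1.16, 1.61, 2.55, 2.87 and 3.16 times the input. In the weakest class the summed level was nearly flat with distance, at 1.11 at 2 kb and 1.19 at 12 to 20 kb. The step between class 2 and class 3 was the widest, and the order held in the shares called at every distance from 2 to 200 kb. Beyond 500 kb the shares were between 0.0180% and 0.134% with no such order. Input reads per window at 8 to 10 kb lay between 8.51 and 8.57 in all classes, and between 53.7% and 56.4% of the runs of each class had no other run within 20 kb. Stronger runs were also wider, as 42.5% of the strongest class and 91.1% of the weakest were single windows.

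**Figure D3:**
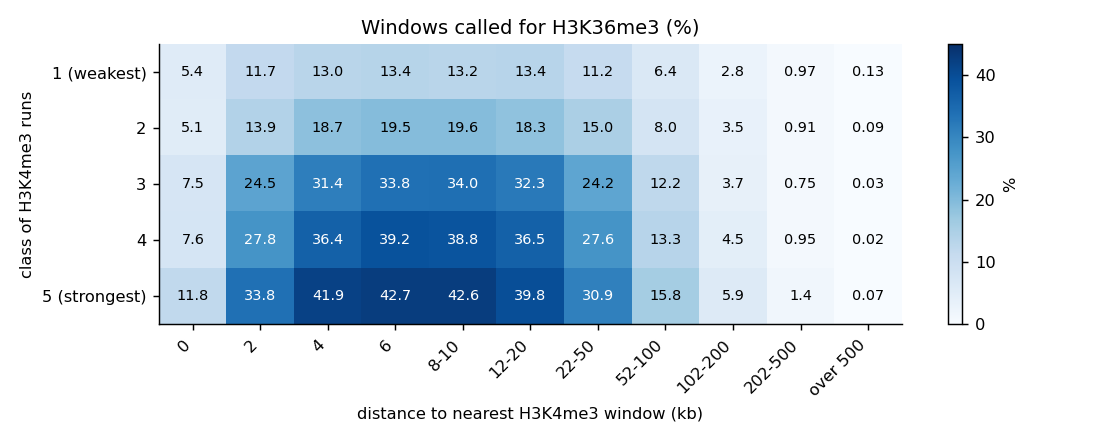
Share of windows called for H3K36me3 in percent, by class of H3K4me3 run strength (rows, 5 classes of equal size) and distance to the nearest marked window in kb (columns). The share at 8 to 10 kb goes from 13.2% in the weakest class to 42.6% in the strongest, and no class is above 0.134% beyond 500 kb.

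Read from the side of H3K36me3, runs without it were weaker. Of the 6808 runs with complete flanks, 1549 had none of their 18 flanking windows called, and their strongest window had a median H3K4me3 level of 17.8-fold over input. The median was 75.4-fold in 1973 runs with 1 to 4 windows called, 124-fold with 5 to 8, 137-fold with 9 to 12 and 170-fold in the 561 runs with 13 to 18. Runs of the weakest class made up 44.1% of those with none called and 6.42% of those with 13 to 18. Across the 6808 runs the log2 level of the strongest window and the log2 level of the flanks had a Pearson's r of 0.488 and a Spearman's rho of 0.471, and on reads without division by input a rho of 0.523. Runs on the same chromosome share libraries, depth and base composition, so these values describe the libraries and carry no p.

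From window to window inside the peaks the marks were almost unrelated in level. Across the 20339 marked windows Spearman's rho between H3K4me3 and H3K36me3 was 0.0344 on levels, which share the same input, and -0.0591 on reads. By class of run, the summed H3K36me3 level in marked windows still differed, at 1.74 times the input in the strongest and 0.951 in the weakest. The shares called were 11.8% and 5.40%. Reads per window were 5.27 and 3.82 for H3K36me3 and 4.45 and 5.91 for the input. The classes were set by H3K4me3 over the same input, so the level varied more between them than the H3K36me3 reads did. The part of the shared input in this gap was not tested. Among the runs with complete flanks the summed level was 1.42 in the strongest class and 0.798 in the weakest. The summed level inside also went up with run width. Runs of 1 window had 0.865 times the input (0.852 to 0.878), of 2 windows 1.18, of 3 windows 1.93, of 4 windows 2.38 and of 5 or more windows 3.90 (3.72 to 4.10). In the 73 runs of 5 or more windows, the inner windows had 4.78-fold and the edge windows 2.37-fold. One run, chr14:54786001-54842000, held 1039 of their 5892 H3K36me3 reads, and without it the summed level was 3.49. The median over these 73 runs was 2.40-fold, against 0.631-fold over the 8527 runs of 1 window. The level was 2-fold or more in 63.0% of the 73 wide runs and in 8.15% of the runs of 1 window. At 4 to 10 kb outside, only runs with no other run within 20 kb were read. The summed level there was 1.81-fold for 4708 runs of 1 window and 2.70-fold for 46 runs of 4 windows. For 19 runs of 5 or more windows it was 3.12-fold (2.90 to 3.35). The widest runs thus did not have less H3K36me3 inside than beside them, although the inside values cover all runs of that width.

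Starting from H3K36me3, windows with more of it lay more often within 20, 50 or 100 kb of H3K4me3. Within 10 kb the rise ended at 2 to 4-fold, and windows with the most H3K36me3 were marked about as seldom as those with the least. Of the windows with an H3K36me3 level of 8-fold or more, 55.3% lay within 20 kb of a marked window and 96.6% within 100 kb. Of those under 0.5-fold, 10.1% and 31.0% did. Within 10 kb the share was 30.3% at 8-fold or more, 30.4% at 4 to 8-fold, 30.8% at 2 to 4-fold and 5.87% under 0.5-fold. Within 2 kb it was 4.49% at 8-fold or more, 10.5% at 2 to 4-fold and 2.09% under 0.5-fold. The median distance was 18 kb at 8-fold or more, 24 kb at 2 to 4-fold, 42 kb at 1 to 2-fold and 244 kb under 0.5-fold. The share that were marked was highest in the middle, at 4.05% (3.93 to 4.16) for 1 to 2-fold, against 1.09% under 0.5-fold and 1.05% (0.929 to 1.18) at 8-fold or more. The share over all windows was 1.77%. Of all called H3K36me3 windows 50.9% lay within 20 kb of a marked window, where 19.2% of all windows lie, and 93.0% lay within 100 kb, where 44.1% of all windows lie.

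**Figure D4:**
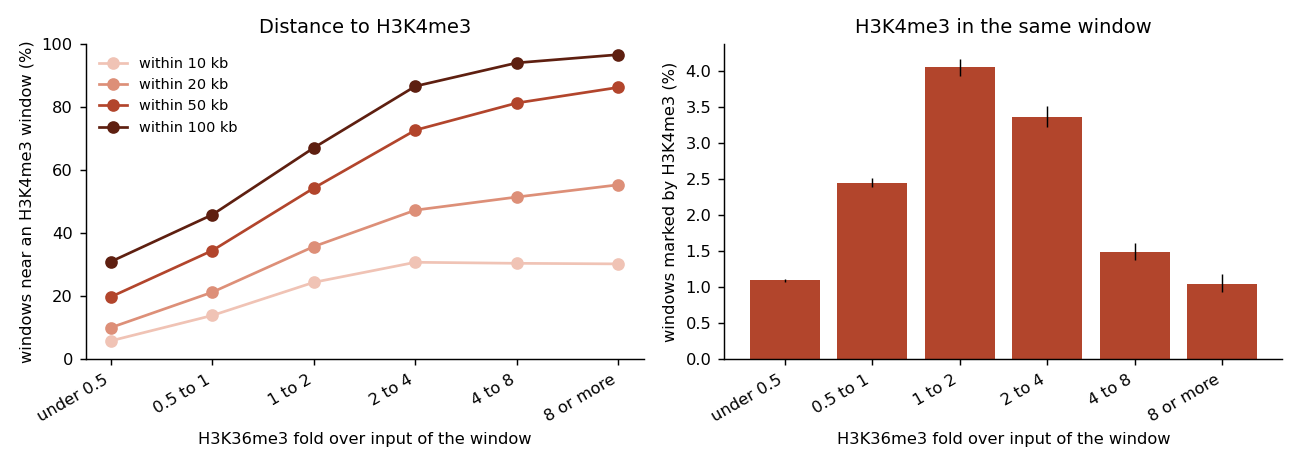
Share of windows within 10, 20, 50 and 100 kb of a marked window (left) and share of windows that are marked themselves with the 95% binomial interval (right), in percent, by the H3K36me3 fold over input of the window. The shares within 20, 50 and 100 kb rise with H3K36me3, the share within 10 kb stays at 30.3% to 30.8% from 2-fold on, and the share marked is highest at 4.05% for 1 to 2-fold.

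Traces of H3K4me3 outside marked windows also varied with H3K36me3. At 12 to 20 kb, windows with 8-fold or more H3K36me3 held 0.319 H3K4me3 reads on average and windows under 0.5-fold 0.628, with 6.97 and 9.20 input reads per window. Over input these traces stood at 3.74% and 5.58%. Windows with at least 1 H3K4me3 read made up 22.2% and 26.9% of these groups. The change between these end groups was not steady, as the traces over input were highest at 6.81% for 1 to 2-fold. At 100 to 200 kb the shares with at least 1 read ran the other way, at 19.2% for 8-fold or more and 13.9% under 0.5-fold. Input reads per window were 6.60 and 9.15. Over input the traces there were 2.78% and 1.94%, and again highest for 1 to 2-fold, at 3.32%. Such traces are far under the threshold.

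How often the marks shared a window differed between window sizes, for which the rules differed too. In 2 kb windows both marks were called in 1593, which is 7.83% of the marked windows and 1.41% of the H3K36me3 windows. That is 0.795 times the number that independent marks would give, and 1.27 times it without the minimum of 10 reads, so the direction at this size hangs on that minimum. With at least 20 reads for each mark in larger windows, the ratio was 1.49 at 4 kb, 3.19 at 10 kb and 4.17 at 50 kb. The read minimum per kb and the stretch that has to reach the fold over input changed with size. The part of size alone was therefore not tested. Windows called for H3K4me3 were 2.55%, 4.46% and 9.6% of those tested at these sizes, and windows called for H3K36me3 were 9.78%, 10.9% and 13.3%. At 50 kb, 2542 windows had both marks, out of 4582 called for H3K4me3 and 6353 called for H3K36me3.

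Along longer stretches of H3K36me3, marked windows were more frequent just outside the ends than inside. Called windows joined over gaps of 1 window gave 22689 blocks, of which 9872 were a single window and 3823 were 20 kb or longer. Around the ends of those 3823 blocks, 18.7% (17.9 to 19.6) of the windows 2 kb outside were marked, 1497 of 7484 at 4 kb outside and 6.43% at 10 kb outside. Inside, 2.85% of windows in the outermost 10% of the block length were marked, and 0.940% (0.781 to 1.12) in the 10% next to the middle. Over all windows 1.77% were marked. A block ends where the call for H3K36me3 is lost, and marked windows seldom pass that call, so part of this contrast follows from how blocks were drawn. Of the 797 blocks of 50 kb or more, 18.3% held a marked window, 66.2% had one within 10 kb and 2.26% had none within 100 kb. Such a block spans many windows, so these shares are not to be set beside the 1.77% for single windows. An end within 10 kb of a marked window was found on one end only in 46.9% of these long blocks, on both ends in 18.3% and on neither in 34.8%. Of the single-window blocks, 31.8% lay within 10 kb of a marked window and 17.0% had none within 100 kb.

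**Figure D5:**
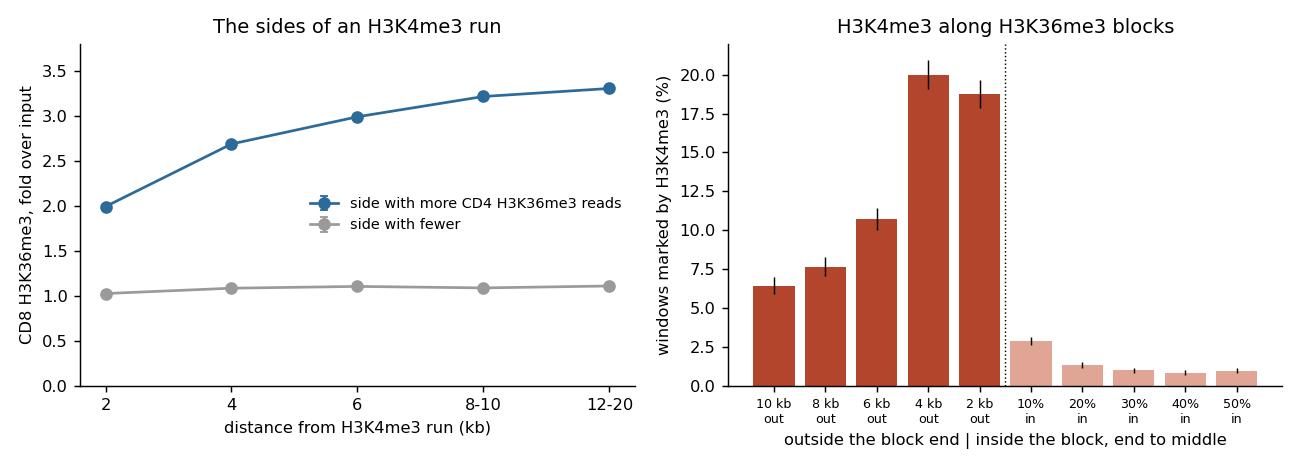
CD8 H3K36me3 as fold over input against the distance in kb from an H3K4me3 run, on the side with more and the side with fewer CD4 H3K36me3 reads (left, bars are 95% counting intervals), and share of marked windows in percent outside and inside the ends of 3823 H3K36me3 blocks of 20 kb or more (right, bars with 95% binomial intervals). One side reaches 3.31-fold while the other stays at about 1.1-fold, and 18.7% of windows 2 kb outside a block end are marked, against 2.85% of those just inside.

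The crowding of marked windows went along with H3K36me3 as well. Windows at 8 to 10 kb with 1 marked window within 100 kb were called for H3K36me3 in 16.3% of cases, those with 4 to 6 in 32.1% and those with over 10 in 37.3%. The summed level was 1.40, 2.44 and 2.83 times the input, with 8.87, 8.66 and 7.65 input reads per window.

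Single regions show the range of the relation. Coordinates are of build mm9. The first set is the 5 windows called for both marks, ranked by the lower of their log2 levels. The window chr8:74844001-74846000 held 2050 H3K4me3, 98 H3K36me3 and 3 input reads. The window chr10:96082001-96084000 held 224, 88 and 4 reads, and chr3:115414001-115416000 held 893, 64 and 2. A pair on chromosome 6 followed. The window chr6:41486001-41488000 held 120 H3K4me3, 60 H3K36me3 and 3 input reads, and chr6:129134001-129136000 held 106, 111 and 3. All 5 had at most 4 input reads, so they were picked in part for low input, and the H3K36me3 level of the first of them, 48.1-fold, has an interval from 16.0 to 237.

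At the other end stood H3K4me3 without H3K36me3. No H3K36me3 call lay within 20 kb, the H3K36me3 count was at most 2 and input had at least 3 reads in 1289 of the 20339 marked windows. How often windows that are not marked meet the same H3K36me3 and input rules was not counted. The 5 with the most H3K4me3 reads were chr1:197066001-197068000 with 3077 H3K4me3, 2 H3K36me3 and 6 input reads, chr3:61168001-61170000 with 2580, 2 and 3, and chr15:86044001-86046000 with 2577, 1 and 5. The fourth, chr7:105964001-105966000, had 2122, 0 and 3 reads, and the fifth, chr14:118488001-118490000, had 2055, 2 and 8. These windows were picked for the most H3K4me3 reads, so their strength follows from the choice. Runs without flanking H3K36me3 had the lowest median.

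The longest H3K36me3 blocks with no marked window within 100 kb were 88 to 142 kb long. The longest, chr3:28430001-28572000, held 3113 H3K36me3, 26 H3K4me3 and 729 input reads, an H3K36me3 level of 6.28-fold (5.79 to 6.82), and its nearest marked window was 110 kb away. The block chr5:73432001-73532000 held 2302, 17 and 448 reads, and chr11:34124001-34214000 held 2123, 16 and 471. The block chr8:84564001-84654000 held 1426, 5 and 402 reads and lay 270 kb from a marked window, and chr4:69880001-69968000 held 1148, 11 and 483. Their H3K4me3 level was between 0.0102 and 0.0310 times the input. In the CD4 libraries the longest of them held 2909 H3K36me3 and 168 H3K4me3 reads, so the stretch was covered there too.

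The longest blocks that hold a marked window were 130 to 166 kb long. The block chr11:23232001-23398000 held 3476 H3K36me3, 674 H3K4me3 and 714 input reads with 1 marked window, and chr19:25128001-25280000 held 4283, 195 and 667 reads with 1. The block chr2:11094001-11224000 held 2618 H3K36me3, 1663 H3K4me3 and 531 input reads with 4 marked windows. The block chr4:147826001-147958000 held 2319, 903 and 597 reads, and chr5:121704001-121834000 held 2032, 304 and 564. Their H3K36me3 levels ran from 5.30-fold to 9.45-fold, and those of the blocks far from H3K4me3 from 3.50-fold to 7.56-fold. These ranges overlap. Both sets were picked by length from the H3K36me3 calls themselves, so the levels are not to be read as a difference between the kinds.

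The CD4 libraries gave a curve of the same shape. With CD4 marks, input and marked windows (22202, 1.92% of those tested), H3K36me3 summed over all reads was at 1.13 times the input in marked windows, 2.20 at 8 to 10 kb and 0.523 at 100 to 200 kb. The CD8 values at the same distances were 1.18, 2.28 and 0.549. The share called at 8 to 10 kb was 29.8% in CD8 cells and 30.1% in CD4 cells. With 1 library per mark and cell type the gaps between the cell types were not tested. The traces of H3K4me3 differed in size, at 0.684 reads per window in CD8 and 2.81 in CD4 cells at 8 to 10 kb, and the CD4 H3K4me3 library had 54.3% distinct starts.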

How the data were processed

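The deposited files give the start and end of each aligned read, 1 per line, all 33 bp wide, without strand, score or other value. The submitters' processing notes name build mm9. Which aligner placed the reads, and how repeated or multiply matching reads were treated, is not given in the sources used here. Read midpoints on chromosomes 1 to 19 were counted in 2 kb windows. Windows without a read in any CD8 library (86013 of 1236171) were left out. Ties in distance went to the lower coordinate. Ratios of summed reads have exact conditional 95% intervals and shares have exact Clopper-Pearson intervals. There are no molecular identifiers, so counting intervals take repeated reads as separate. Correlations used log2 levels with 0.5 H3K36me3 reads added.

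The named regions were the 5 highest of each of 4 kinds, leaving out 173 windows with over 5 times the median input. Windows, lists and rules were chosen with earlier results of these data known. The summed H3K36me3 level by distance class and the count of marked windows were tested on simulated counts with planted levels. The other results were not tested in this way. Alternatives are given in the closing section. Python 3.11.15, NumPy 2.4.6, SciPy 1.17.1, pandas 2.3.3 and matplotlib 3.10.9 were used.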

Additional observations from a re-analysis of the deposited data

Results flagged for a closer look

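Chromosome X was outside the chromosomes compared and showed the same signal above input. At 8 to 10 kb from a marked window, CD8 H3K36me3 was 2.32-fold over input (2.25 to 2.39), from 10279 H3K36me3 and 6526 input reads. In the 648 marked windows of chromosome X it was 1.24-fold, and at 200 to 500 kb 0.374-fold. The share of windows called at 8 to 10 kb was 21.5% there and 29.8% on chromosomes 1 to 19, with 4.53 and 8.54 input reads per window. The lower depth on chromosome X makes the minimum of 10 reads harder to meet.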

How the results depend on the processing

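No paired analysis was possible because each group is 1 library and no result comes from a test. The count of marked windows stayed between 17345 and 21484 under the 7 alternatives for it. In the order 1 read per start position, 8 times input for H3K4me3, 50 reads for H3K4me3, CD4 input for H3K36me3, and windows of under 3 input reads left out, the H3K36me3 level at 8 to 10 kb over that in marked windows (1.92) was 1.87, 2.03, 2.07, 2.24 and 2.05, and 1.94 with windows shifted by 1 kb. In the same order of the first 5 settings, the share of windows with 8-fold H3K36me3 within 20 kb of a marked window (55.3%) was 56.1%, 54.1%, 54.3%, 54.2% and 51.8%. The share of called H3K36me3 windows within 20 kb (50.9%) was 51.8%, 49.2%, 49.5%, 50.5% and 47.7%, and 52.1% at 3 times input for H3K36me3 and 50.4% without a read minimum. The gap in share called between the strongest and the weakest class of runs (29.4 percentage points) was 24.6 with 1 read per start position and 28.0 at 50 reads. The ratio of windows with both marks to that of independent marks (0.795) was 0.750 at 8 times input, 0.744 with CD4 input and 0.741 at 3 times input for H3K36me3. It turned to 1.27 without the minimum of 10 reads, an alternative added after the data were seen that lets in windows of few reads. The other 23 values of these results stayed inside their counting intervals or, for counts, within 1.5 times, and windows of high input changed none of them. The depth limits single windows most, since a window 8 to 10 kb from H3K4me3 held 13.2 H3K36me3 and 8.54 input reads on average.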
